A study of Mus musculus with 6 samples.

Results

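The immunity-related GTPases (IRGs) and the guanylate-binding proteins (GBPs) are 2 families of large GTP-hydrolysing proteins that mouse cells make in response to interferon. Described here are 6 of their genes, namely Iigp1, Igtp, Irgm1, Irgm2, Gbp2 and Gbp3, which 8 probe sets measured out of 45101 on each array, or 6 of 18193 genes. A probe set was taken where the array annotation gave it exactly 1 gene symbol and that symbol was 1 of the 6. The genes were selected on measured values of the same arrays, the difference between PD0332991 and vehicle among them, so that difference is given for them as a description, with no test.

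The cells were V720, a mouse breast cancer line of the mammary epithelium according to its labels. One group received 1 µM PD0332991 for 24 h and the other received vehicle, with 3 arrays per group and 6 in all. PD0332991 (palbociclib) inhibits the kinases CDK4 and CDK6, which drive cells from G1 into S phase. All cells grew in the same serum-supplemented medium, the labels name no added interferon, and the study has a single line and a single dose and time. The design text calls the samples biological triplicates.

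IRGs and GBPs are effectors of cell-autonomous immunity, best known for attacking the vacuoles in which intracellular bacteria and parasites live. Interferon gamma acts through its receptor and the kinases JAK1 and JAK2, and its signal reaches genes through a DNA element called GAS. Type I interferons act mainly through a complex that contains IRF9 and binds another element, the ISRE, and IRF1 can bind ISRE-like sequence as well. Within the IRG family, Iigp1 (also called Irga6) is an effector of the GKS type that accumulates on vacuole membranes. Irgm1, Irgm2 and Igtp (Irgm3) belong to the GMS type, which sits on the cell's own membranes and keeps the effector IRGs inactive there. Gbp2 and Gbp3 encode GBPs, which assemble on the membranes of pathogens and their vacuoles.

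The promoters of 5 of the genes are shown, which are all those with a promoter window in the sources used here. No window was available for Iigp1, and none was left out for its motifs. Each sequence is RefSeq's for the mouse build GRCm38.p6 and runs 5′ to 3′ on the strand of its gene, from 250 bases before the gene's start to 50 after it. Capitals mark every base that belongs to a match of GAS, spelled TTCNNNGAA, or of the ISRE core, spelled GAAANNGAA, each searched on both strands. Igtp is at chr11:58199306-58199605 on the plus strand, Irgm2 at chr11:58214727-58215026 on the plus strand and Irgm1 at chr11:48871371-48871670 on the minus strand. Gbp2 is at chr3:142620413-142620712 and Gbp3 at chr3:142559794-142560093, both on the plus strand.
Igtp: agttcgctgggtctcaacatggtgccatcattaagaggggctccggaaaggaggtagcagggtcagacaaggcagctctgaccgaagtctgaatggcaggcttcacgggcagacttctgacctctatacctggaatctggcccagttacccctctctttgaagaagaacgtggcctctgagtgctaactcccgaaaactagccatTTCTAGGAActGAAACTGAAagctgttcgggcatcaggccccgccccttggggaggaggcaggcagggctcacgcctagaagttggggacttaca
Irgm2: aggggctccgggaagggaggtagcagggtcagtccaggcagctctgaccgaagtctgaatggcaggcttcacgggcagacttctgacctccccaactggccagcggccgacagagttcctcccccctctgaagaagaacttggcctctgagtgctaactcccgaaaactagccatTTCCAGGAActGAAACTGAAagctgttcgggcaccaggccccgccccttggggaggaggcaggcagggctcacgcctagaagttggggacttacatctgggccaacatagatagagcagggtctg
Irgm1: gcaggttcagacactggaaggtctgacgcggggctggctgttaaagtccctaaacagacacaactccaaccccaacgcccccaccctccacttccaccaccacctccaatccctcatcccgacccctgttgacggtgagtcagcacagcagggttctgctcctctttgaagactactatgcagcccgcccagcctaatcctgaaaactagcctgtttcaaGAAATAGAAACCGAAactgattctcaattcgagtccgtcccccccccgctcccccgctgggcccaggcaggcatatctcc
Gbp2: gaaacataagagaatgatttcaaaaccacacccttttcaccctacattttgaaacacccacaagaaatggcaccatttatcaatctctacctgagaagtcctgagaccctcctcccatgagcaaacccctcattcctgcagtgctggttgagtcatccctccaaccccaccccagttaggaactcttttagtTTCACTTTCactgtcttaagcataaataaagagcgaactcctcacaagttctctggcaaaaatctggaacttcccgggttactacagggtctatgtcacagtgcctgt
Gbp3: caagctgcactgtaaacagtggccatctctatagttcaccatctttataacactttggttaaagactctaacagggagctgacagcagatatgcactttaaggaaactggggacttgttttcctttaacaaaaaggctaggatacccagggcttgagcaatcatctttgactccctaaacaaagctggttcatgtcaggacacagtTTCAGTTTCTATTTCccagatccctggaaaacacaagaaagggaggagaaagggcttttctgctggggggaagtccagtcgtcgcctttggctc

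An ISRE core was present in the window of all 5 genes, whereas 9.76% of the 27025 genes with a promoter window held one. Irgm1 had 2 overlapping matches, and so did Gbp3, whose second annotated start had no match of either motif. GAS was present in Igtp and Irgm2 and not in these windows of Irgm1, Gbp2 and Gbp3, and 9.55% of all genes held it. In Igtp and in Irgm2 the GAS match stood just upstream of the ISRE core, and 1.24% of all genes held both motifs. In Igtp the GAS letters TTCTAGGAA began 45 bases before the start and the ISRE letters GAAACTGAA began 34 bases before it. The windows of these neighbouring genes were alike over most of their length, with 247 identical positions in 271 aligned columns (91.1%). No other pair of the 5 windows aligned over more than 99 columns. A match describes letters in a window and not binding in these cells.

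On the PD0332991 arrays all 6 genes stood higher than on the vehicle arrays, by 1.74-fold to 2.44-fold over the 8 probe sets. The values are linear probe-set intensities, and every fold change is taken on log2(intensity + 16), which understates the change of dim probe sets. A probe set's level cannot be set against another probe set's, so the genes are not ranked by level. The plot of intensities shows each array.

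**Figure D1:**
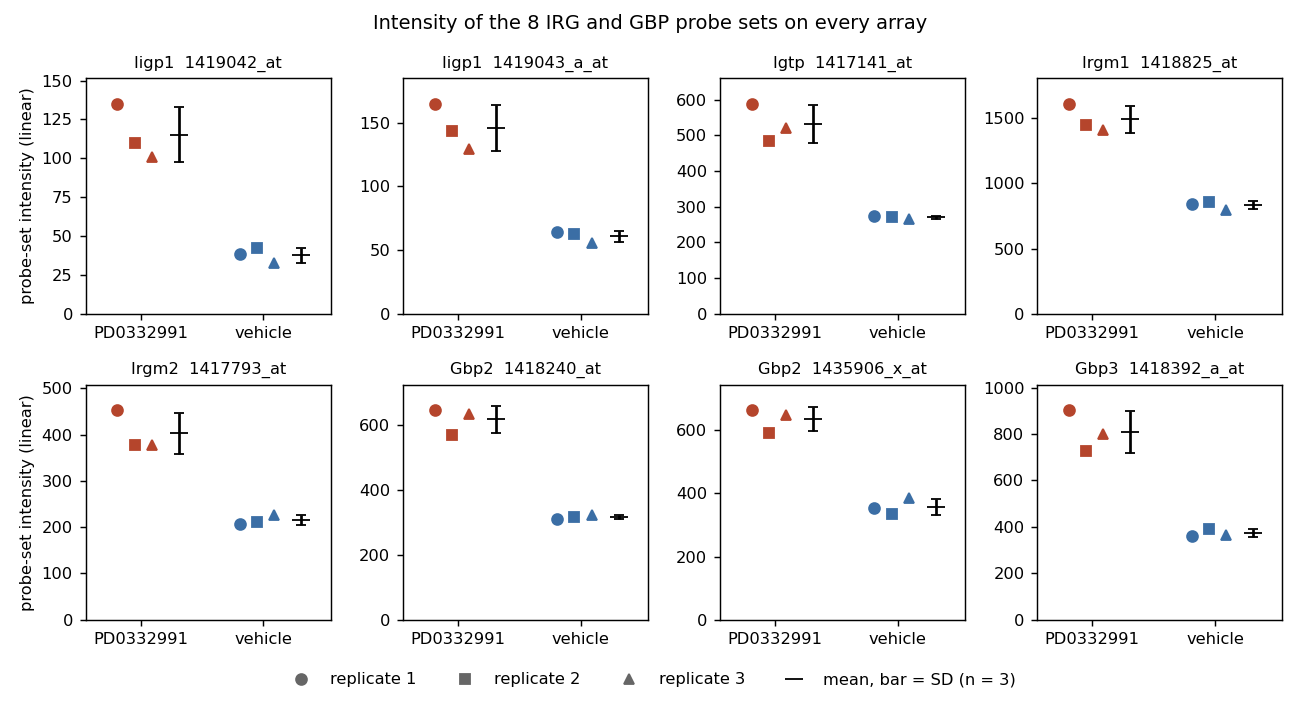
Linear probe-set intensity (vertical axes, from 0) of the 8 probe sets of the 6 genes on the 3 PD0332991 and the 3 vehicle arrays, with each replicate as a symbol and the mean with its SD as a black bar. In every panel the lowest PD0332991 array lies above the highest vehicle array, and PD0332991 replicate 1 is the highest of all.

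The effector gene Iigp1 has a pair of probe sets, both dim with vehicle. The probe set 1419042_at read 135, 109.9 and 101 on PD0332991 replicates 1, 2 and 3, against 38.2, 42.15 and 32.4 on the vehicle replicates. Its log2 fold change of 1.29 (SE 0.12) was the largest of the 8, and the plain ratio of its mean intensities, 115.3 ± 17.8 over 37.6 ± 4.92 (SD, n = 3 each), was 3.07. The probe set 1419043_a_at read 165, 144 and 129 with PD0332991 and 64.1, 62.65 and 55.8 with vehicle, a log2 fold change of 1.07 (SE 0.09). Both probe sets separated the groups without overlap, and both had PD0332991 replicate 1 highest and replicate 3 lowest. The gene lies on chromosome 18 beside other IRG genes, among them Gm4951, described below.

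Among the 3 regulatory IRGs the changes were close to each other. Igtp read 589, 484 and 521 on the PD0332991 arrays, against 274, 271 and 266 on the vehicle arrays, so that its vehicle arrays lay within 8 units of each other and its PD0332991 arrays within 105. Its log2 fold change was 0.93 (SE 0.07), a 1.91-fold higher level. Irgm2, the next coding gene after Igtp on chromosome 11, read 453, 377 and 377 with PD0332991 and 207, 211 and 227 with vehicle. Its log2 fold change was 0.85 (SE 0.08), or 1.81-fold, and thus differed from that of Igtp by no more than their errors. Irgm1, which lies elsewhere on chromosome 11, read 1614, 1451 and 1414 with PD0332991, against 845, 861 and 799 with vehicle. Its log2 fold change was 0.82 (SE 0.06), or 1.77-fold. In all 3 genes the groups were apart by more than the whole spread within either group.

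Gbp2 and Gbp3 lie in a cluster on chromosome 3, where Gbp7, Gbp3, Gbp2b and Gbp2 follow each other among coding genes. Gbp3 read 904, 725 and 799.7 on the PD0332991 arrays, against 362, 391 and 366 on the vehicle arrays, with a log2 fold change of 1.08 (SE 0.09), or 2.11-fold. Gbp2 has 2 probe sets. The first, 1418240_at, read 646, 569 and 634 with PD0332991 and 309.5, 316 and 323 with vehicle, a log2 fold change of 0.93 (SE 0.06). The second, 1435906_x_at, read 664, 591 and 648.5 with PD0332991 and 354, 334 and 384 with vehicle, a log2 fold change of 0.80 (SE 0.07). They gave the same direction and the groups overlapped on neither, but the suffix of the second marks probes that can match other transcripts, and GBP genes have close paralogs. The probe set of Gbp3, 1418392_a_at, and 1419043_a_at of Iigp1 are of a type whose probes match several transcripts of 1 gene.

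With limma on 1 probe set per gene, all 6 genes were called higher at an adjusted p under 0.05, where 9.81% of the 18193 genes were called higher and 21% were called in either direction. With each of the 34945 single-symbol probe sets fitted on its own, all 8 were called higher, where 7.87% of probe sets were. In all 8 the 3 PD0332991 arrays lay above the 3 vehicle arrays, as they did in 17.6% of those probe sets. Because the genes were selected on this same comparison, these counts describe the selection and nothing is read from them. The median log2 fold change was 0.89 over the 6 genes and 0.0048 over all genes.

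Which array of a group was highest is also given only as a description, because the genes were selected on measured values of these same arrays. The 8 probe sets measure 6 genes and are not 8 independent values. Among the PD0332991 arrays, replicate 1 was the highest of the 3 in 8 of 8 probe sets, although it was the highest in 31.0% of the 34945 single-symbol probe sets. Among the vehicle arrays no replicate stood out, with replicates 1, 2 and 3 highest in 2, 3 and 3 of the 8. PD0332991 replicate 1 lay above its group mean by 0.07 (Gbp2) to 0.17 (Irgm2) on the log2 scale, and PD0332991 replicate 2 lay below it in all 6 genes. Iigp1 was lowest on replicate 3, by 0.15 below its group mean, and Gbp3 on replicate 2, also by 0.15. The same array was also the highest of its group in 20 of 27 type I interferon target genes and in 13 of 30 other interferon gamma target genes. Without PD0332991 replicate 1 the median log2 fold change of the 6 genes was 0.81.

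**Figure D2:**
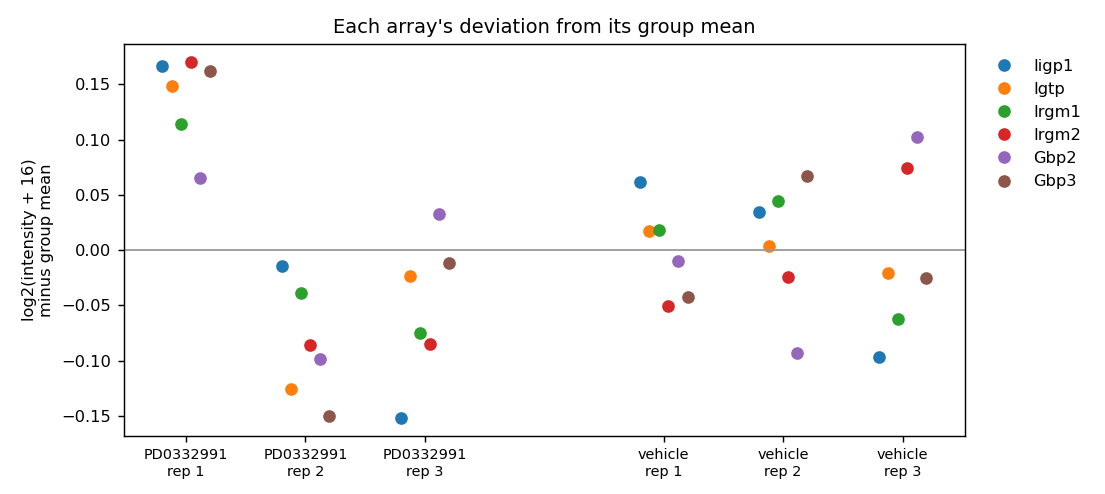
Deviation of each array from its own group mean on the log2(intensity + 16) scale (vertical axis), for the 6 genes (colours, 1 probe set each) and the 3 PD0332991 and 3 vehicle arrays (horizontal axis). All 6 points of PD0332991 replicate 1 lie above 0 and all 6 points of PD0332991 replicate 2 below it, while the points of each vehicle array lie on both sides.

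As a description of how the genes vary together inside the groups, the deviations from the group mean were correlated over the 6 arrays. The 15 pairs of genes had a median r of 0.64, from -0.13 between Gbp2 and Iigp1 to 0.96 between Irgm1 and Iigp1, and 13 of the 15 were above 0. The 6 points share 3 arrays per group, and because the group means are removed they are not 6 free values. Igtp and Gbp3, on different chromosomes, had r = 0.93, and the neighbours Igtp and Irgm2 had r = 0.79. Gbp2 deviated least with the others, with r = -0.06 to Irgm1. By the same measure the genes whose deviations were most like the mean of the 6 were Pcmtd1, Usp18, Cdc42, Cdkl2 and B4gat1, with r = 0.986 to 0.997 among 9091 genes above the median level. In either direction 21% of all genes were called between the groups, and of these 5 genes only Usp18 was. Usp18 removes the ubiquitin-like modifier ISG15 and dampens type I interferon signalling. It read 823, 680 and 696 on the PD0332991 arrays and 222, 219.9 and 218 on the vehicle arrays (log2 fold change 1.66, SE 0.08, limma adjusted p = 9.99e-05). Its vehicle arrays lay within 4 units of each other, and its highest PD0332991 array was again replicate 1. Both traits are built in by the search. The mean of the 6, each scaled to a like size, was 0.65 on that array and -0.016 to 0.018 on the vehicle arrays.

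Of 9 measured relatives outside the 6 genes, 3 were called higher and none lower with limma over all genes, where 9.81% of all genes were called higher and 11.2% lower. These were Gbp7 (adjusted p = 0.0205), Ifi47 (adjusted p = 0.0276) and Irgq (adjusted p = 0.0316), and the median log2 fold change over the 9 was 0.24. Gbp7, a neighbour of Gbp3, had 2 probe sets that agreed. The brighter, 1434380_at, read 429.7, 373 and 326 with PD0332991 and 234, 236 and 275 with vehicle, a log2 fold change of 0.56 (SE 0.11). The dimmer, 1425156_at, read 160.5, 160.5 and 153 with PD0332991 and 104, 109 and 105 with vehicle, 0.51 (SE 0.04). Ifi47 (also called Irgd), an IRG of the GKS type, read 101, 83.7 and 86.5 with PD0332991 and 68.7, 46.3 and 51.5 with vehicle, and its groups did not overlap. The count of 3 became 0 without PD0332991 replicate 2 or without vehicle replicate 2. It became 1 without PD0332991 replicate 1 or 3 or vehicle replicate 1, and with spike-in centring, and was 3 without vehicle replicate 3.

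The probe sets of Gbp6 disagreed. On 1438676_at it read 79.1, 83.0 and 77.2 with PD0332991 and 26.5, 36.8 and 29.6 with vehicle, a log2 fold change of 1.03 (SE 0.09, limma adjusted p = 0.00121 over all probe sets) and thus about the size of Gbp3's. On 1447927_at, which had the higher mean and so represented the gene, the means were 76.8 ± 9.69 with PD0332991 and 62.6 ± 6.91 with vehicle (SD, n = 3 each), the groups overlapped and the gene was not called (log2 fold change 0.24, adjusted p = 0.163). The probe sets of Irgq, which is not known to be induced by interferon, differed too, with log2 fold changes of 0.23 on 1435540_at and -0.21 on 1437653_at.

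The other 5 relatives had low signal in both groups and were not called. Gbp2b, which lies between Gbp3 and Gbp2, averaged 5.22 ± 1.73 with PD0332991 and 9.47 ± 4.56 with vehicle (SD, n = 3 each, log2 fold change -0.25), although both neighbours stood higher with PD0332991. Gm4951, close to Iigp1, averaged 11.8 ± 4.46 and 6.96 ± 2.81 (SD, n = 3 each, PD0332991 and vehicle), and Gm12185, close to Irgm1, 7.06 ± 5.93 and 4.04 ± 3.08 in the same order. Gbp8 averaged 17.9 ± 3.93 with PD0332991 and 8.92 ± 5.88 with vehicle, with groups that overlapped, and it was called higher when vehicle replicate 3 was left out (adjusted p = 0.0263). Irgc1, a testis-expressed member, averaged 1.00 with PD0332991 and 1.90 ± 1.55 with vehicle (SD, n = 3). The files hold no detection calls, and signals this low cannot be told from background. The ISRE core was present in the promoter windows of Gbp7, Gbp2b and Gm12185 and not in those of Ifi47 and Irgq. GAS was present in those of Gbp7 and Gm12185 and not in those of Gbp2b, Ifi47 and Irgq. Both called and uncalled relatives thus held each motif.

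**Figure D3:**
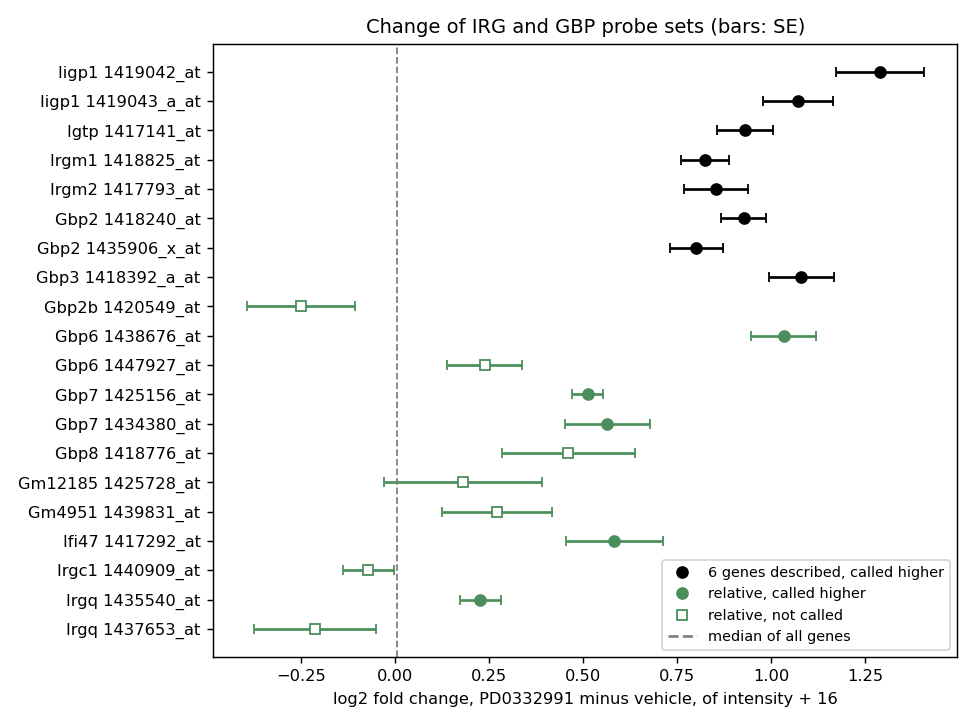
Log2 fold change of intensity + 16, PD0332991 minus vehicle (horizontal axis, bars are SE), of the 8 probe sets of the 6 genes (black) and the 12 probe sets of their relatives (green), with called probe sets filled and the median of all genes as a dashed line. The black points lie from 0.80 to 1.29, and among the relatives 1438676_at of Gbp6 lies in that range, while the other relatives lie from -0.25 to 0.58.

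Among 15 receptor, kinase, STAT, IRF and feedback genes of the interferon gamma pathway the calls were 2 higher and 1 lower, close to the 9.81% called higher and 11.2% called lower over all genes, and the median log2 fold change was 0.09. Irf9, the DNA-binding partner in the type I complex, averaged 974 ± 60.4 with PD0332991 and 600.2 ± 26.5 with vehicle (SD, n = 3 each). Its log2 fold change of 0.68 (SE 0.06) was called higher under every alternative that tested it (adjusted p = 0.00124). Of the receptor chains, Ifngr2 read 478, 467 and 449 with PD0332991 and 338, 345 and 412 with vehicle (log2 fold change 0.34, adjusted p = 0.0354), and Ifngr1 averaged 1225 ± 2.76 and 1166 ± 36.1 (SD, n = 3 each, PD0332991 and vehicle, adjusted p = 0.259). The call of Ifngr2 was lost without any 1 array other than vehicle replicate 3 (adjusted p = 0.0778 to 0.105), while on its other probe set the log2 fold change was 0.41 (adjusted p = 0.0052 over all probe sets). Irf1, a transcription factor that drives GBP and IRG genes, averaged 733 ± 34.5 with PD0332991 and 647 ± 17.7 with vehicle (SD, n = 3 each). Its log2 fold change of 0.17 was not called (adjusted p = 0.0544), but it was called under 6 alternatives, among them quantile normalization (adjusted p = 0.0366) and without PD0332991 replicate 3 (adjusted p = 0.0498). Ptpn2, a phosphatase that dampens JAK and STAT signalling, fell by 0.16 on the log2 scale (adjusted p = 0.0232). That call was lost without any 1 array other than PD0332991 replicate 2 (adjusted p = 0.0551 to 0.0759), and its 3 other probe sets had -0.11, 0.03 and 0.07.

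Of 10 interferon genes measured, only Ifna9 had means above the array medians (126.4 with PD0332991 and 108.5 with vehicle, not called). Ifng read 14.9, 22.9 and 26.1 on PD0332991 replicates 1, 2 and 3, against 13.9, 9.26 and 13.1 on the vehicle replicates (log2 fold change 0.40, SE 0.13, adjusted p = 0.0883). PD0332991 replicate 1 had the lowest Ifng value of its group, and without that array Ifng was called higher (adjusted p = 0.0282). Signals this low cannot be told from background, and a link between Ifng and the GTPase genes was not tested. None of the 10 was called higher and 1 was called lower, namely Ifna5, which averaged 12.8 ± 5.19 with PD0332991 and 26.0 ± 1.16 with vehicle (SD, n = 3 each, adjusted p = 0.0322). The call of Ifna5 was lost without PD0332991 replicate 2 or any 1 vehicle array (adjusted p = 0.0823 to 0.0988). The remaining 8 were not called, among them Ifnb1 with means of 39.7 and 36.8 (PD0332991 and vehicle).

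Among 30 other interferon gamma target genes the calls were 8 higher and 1 lower, where 9.81% of all genes were called higher and 11.2% lower. Their median log2 fold change was 0.16. The chemokine gene Cxcl10 read 134, 122 and 127 with PD0332991 and 49.4, 41.6 and 43.1 with vehicle (log2 fold change 1.24, SE 0.06, adjusted p = 0.000127), and Xaf1, a pro-apoptotic gene, was 2.07-fold higher (adjusted p = 0.000439). The other genes called higher were Tap1, Tapbp, Psmb8, Psmb10 and B2m, which serve class I antigen presentation, and the class II gene H2-Aa. H2-Aa (log2 fold change 0.56, adjusted p = 0.0359) averaged 35.8 with PD0332991 and 19.1 with vehicle, both under the array medians. The class II genes H2-Ab1, H2-Eb1 and H2-DMa were not called, and their groups overlapped (log2 fold changes 0.22, 0.18 and -0.07). Of the 21 genes not called, Ciita, the master regulator of class II genes, averaged 85.9 with PD0332991 and 80.5 with vehicle. Ifi30, a lysosomal thiol reductase, fell by 0.27 on the log2 scale (adjusted p = 0.0083). Of 27 type I interferon targets 18 were called higher and none lower, with a median of 0.61, led by Ifit1 at 4.51-fold (adjusted p = 0.000127). With the filter on dim genes, 8 of the other interferon gamma targets and 14 of the type I targets were kept. Of these, 6 and 12 were called higher, where 2227 of the 9096 genes kept were. The lists thus differ in how many of their genes are dim. The counts were set beside each other and the difference between the lists was not tested.

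**Figure D4:**
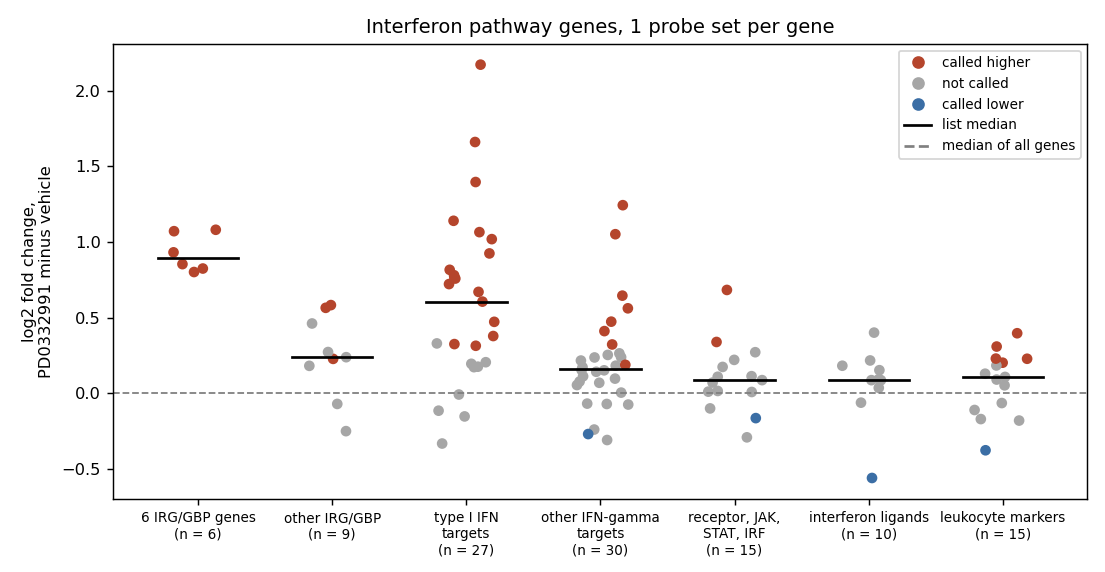
Log2 fold change, PD0332991 minus vehicle (vertical axis), of single genes (points, 1 probe set each) in the 6 GTPase genes, their relatives and 5 lists, with list medians as black lines and the median of all genes dashed. The 6 GTPase genes lie from 0.80 to 1.08, the type I interferon targets have a median of 0.61, and the signalling genes and interferon ligands have medians of 0.09.

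Genes that work with IRGs and GBPs changed in part. As background to the counts below, 9.81% of all genes were called higher and 11.2% lower. Of 15 autophagy genes, whose products load these GTPases onto the right membranes, 8 were called higher and none lower, and the median log2 fold change of the 15 was 0.15. The 8 became 3 to 5 with any 1 array left out (4, 3 and 4 without PD0332991 replicates 1, 2 and 3, and 3, 5 and 3 without vehicle replicates 1, 2 and 3) and 0 with spike-in centring. Map1lc3a was 1.21-fold higher (adjusted p = 0.00647) and Gabarapl1, of the same ubiquitin-like family, 1.24-fold (adjusted p = 0.0112). The other probe set of Map1lc3a had a log2 fold change of 0.23 and was not called (adjusted p = 0.0969 over all probe sets). That of Gabarapl1 had 0.33 and was called higher (adjusted p = 0.014 over all probe sets). Of 8 inflammasome genes, which act downstream of GBPs in infected cells, Il18 (1.33-fold, adjusted p = 0.00252) and Casp1 (1.26-fold, adjusted p = 0.0134) were called higher. With spike-in centring neither was called, and Casp1 was not called without PD0332991 replicate 2 (adjusted p = 0.0509). Pycard, the adaptor of the inflammasome, fell by 0.45 (log2, adjusted p = 0.00162), with means of 1726 with PD0332991 and 2369 with vehicle. Its other probe sets had -0.18 and 0.27, and on both the groups overlapped. Those probe sets were dim, with means of 24.6 and 38.9 with PD0332991 and of 29.8 in both with vehicle.

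The median intensity was 69.6 to 71.1 on the PD0332991 arrays and 71.3 to 72.7 on the vehicle arrays, and no pair of arrays was a duplicate. Over all genes 1785 (9.81%) were called higher and 2035 (11.2%) lower. Those counts were 2138 and 1618 after centring each array on its median. Centring on spiked-in hybridization controls gave 240 and 1475 and moved the median of all genes to -0.12. On vehicle replicate 1 those controls had a mean log2 level of 9.74, against 10.0 to 10.05 on the PD0332991 arrays and 9.94 and 10.03 on the other vehicle arrays. Epithelial markers summed to 61372 to 63200 with PD0332991 and 58200 to 59907 with vehicle, and of the 12 Cldn4 (1.54-fold) and Krt7 (1.15-fold) were called higher and Elf3, which fell by 0.40 (log2), lower. The call of Elf3 was lost without any 1 array other than vehicle replicate 1 (adjusted p = 0.0649 to 0.0868), that of Krt7 without PD0332991 replicate 2 or vehicle replicate 2 (0.052 and 0.0504), and that of Cldn4 without PD0332991 replicate 2 (0.0513). Leukocytes are rich in IRGs and GBPs, and of 15 leukocyte markers 5 were called higher and 1 lower, with a summed intensity of 2768 to 2893 on PD0332991 arrays against 2505 to 2600.0 on vehicle arrays. Most of that sum is Cd14, which averaged 1905 and 1740 (PD0332991 and vehicle) and was not called, and 9 of the 15 had means under the array median. The defining marker Ptprc (CD45) averaged 18.2 ± 1.02 with PD0332991 and 11.6 ± 1.67 with vehicle (SD, n = 3 each, adjusted p = 0.0146), Cd68 was 1.32-fold higher and Laptm5 fell by 0.38 (log2, adjusted p = 0.0484). The call of Ptprc was lost without PD0332991 replicate 2 or 3 (adjusted p = 0.0534 and 0.0504) and with eBayes trend and robust settings (0.105). Its signals are too low to be told from background, and on its other probe set the groups overlapped (log2 fold change 0.21, adjusted p = 0.14 over all probe sets). The call of Laptm5 was lost without any 1 array other than vehicle replicate 2 (0.0802 to 0.136). Leukocyte markers called higher numbered 1 to 3 with 1 array left out and 0 with spike-in centring, and the T-cell marker Cd3e averaged 1.33 and 3.79 (PD0332991 and vehicle), near the lowest signals of the arrays. The part of such cells in the GTPase values was not tested, and in RNA from a whole culture more cells of a type and more RNA per cell cannot be told apart. Of 8 endothelial and 8 fibroblast markers none was called higher and 1 of each was called lower, Emcn (5.71 ± 0.289 and 13.2 ± 0.737) and Pdgfra (117 ± 5.03 and 175 ± 13.6, SD, n = 3 each, PD0332991 and vehicle in both). Signals as low as those of Emcn cannot be told from background. Other probe sets of Pdgfra had log2 fold changes of 0.04 and -0.11, with groups that overlapped.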

How the data were processed

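Total RNA from V720 cells was labelled with biotin by the Affymetrix procedure, per the labels' protocols. The authors deposited 1 linear intensity per probe set and array, and summarisation, scaling and build are not given in the sources used here. Arrays were at a like level and were not normalized further. Of 45101 probe sets, 64 controls were left out, and 34945 of the rest had 1 gene symbol, 932 several and 9160 none in the platform annotation, which can be old. They named 18193 genes, 18032 of them matched to RefSeq by gene number, each represented by its probe set with the highest mean log2 value.

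Intensities became log2(intensity + 16). The groups were compared with a two-sided moderated test in limma 3.58.1 (lmFit, then eBayes; R 4.3.3), with no block and no filter on dim genes. The p-values were adjusted by Benjamini-Hochberg across the 18193 genes, and a gene was called at an adjusted p under 0.05. A second fit ran over all single-symbol probe sets, and p-values of named genes are from the first unless a probe set is given. The procedure was tested on simulated data. Promoter windows came from RefSeq (GRCm38.p6), with 5 of 6 genes matched, and were aligned with Biopython 1.88. The p-values measure the spread between 3 arrays per group, and the number of arrays limits the precision. Deviations of same-numbered arrays of the 2 groups had correlations of 0.008, -0.051 and 0.05, and those of differently numbered arrays -0.058 to 0.051. No pairing by number was seen, but with 3 arrays per group this cannot exclude that cultures were handled in pairs.

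The genes, lists, named-gene rule and tests were chosen with earlier results of these data known. Named were the 6 genes, all measured relatives, up to 4 genes of each other list by smallest p, Ifng, its receptor genes and Irf1, and the 5 genes of most similar deviation. Genes outside the rule, chosen after their values were seen, were Ciita, H2-Ab1, H2-Eb1, H2-DMa, Ifnb1, Ifna9, Cd14, Cd3e and the remaining calls among the other interferon gamma targets. Alternatives were pseudocounts of 1 and 64, quantile normalization, centring on the array median or on 9 spike-in probe sets, a filter on dim genes, other probe-set choices, eBayes with trend and robust settings, a replicate block, a threshold of 0.01 and each array left out.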

Additional observations from a re-analysis of the deposited data

Results flagged for a closer look

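Probe sets annotated to several genes entered no count above, and 2 of those that list a relative of the 6 GTPase genes were higher with PD0332991 than on any vehicle array. Probe set 1429184_at averaged 2088 ± 183 with PD0332991 and 1069 ± 30.3 with vehicle (SD, n = 3 each), 1.93-fold higher (limma adjusted p = 0.0036 over the probe sets with several or no symbols). Probe set 1449009_at read 85.95, 62.0 and 44.9 with PD0332991 and 25.7, 21.6 and 26.0 with vehicle, 1.94-fold higher (adjusted p = 0.049). In both, PD0332991 replicate 1 was the highest array, as in the 6 genes. Another such probe set, 1421104_at, averaged 82.1 ± 12.9 with PD0332991 and 80.8 ± 5.62 with vehicle (SD, n = 3 each) and was not called. No gene name is given because each lists several.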

How the results depend on the processing

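The 6 GTPase genes were selected on the difference between the groups, so their calls under the alternatives are a description and no support. The count called higher was 6, except for 5 with the filter on dim genes, where Iigp1 was not tested, and for 5 without probe sets of the types matching several transcripts, where Gbp3 was not tested. Their median log2 fold change ran from 0.77 with spike-in centring or a pseudocount of 64 to 0.95 without PD0332991 replicate 2. With the replicate block their count called higher was 6. The block lowered the calls over all genes from 3820 to 2047, those of the relatives to 1, of the signalling genes to 1, of other interferon gamma targets to 5, of autophagy genes to 2 and of leukocyte markers to 2.

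Over all genes the calls were 1715 with spike-in centring, 1571 with spike-in centring without vehicle replicate 1, 6138 over single probe sets, 1703 at a threshold of 0.01 and 2497 to 2683 with 1 array left out. Counts called higher among the relatives, signalling genes, other interferon gamma targets and leukocyte markers were 1, 1, 4 and 0 with spike-in centring and 1, 1, 3 and 0 with that centring and no vehicle replicate 1. At a threshold of 0.01 they were 0, 1, 5 and 1, and without probe sets of the types matching several transcripts the last 3 were 1, 5 and 2. Signalling genes called higher numbered 1 with a pseudocount of 1, 4 after quantile normalization and 4 with trend and robust settings, and leukocyte markers 2 with the dim filter. With 1 array left out the ranges were 0 to 3, 1 to 2, 6 to 8 and 1 to 3. Of the type I targets 12 to 19 were called higher and 0 or 1 lower. Leaving out those probe sets reversed Laptm5 (0.0471 against -0.38) and Ptpn2 (0.033 against -0.16), both then resting on another probe set, and spike-in centring moved the median of all genes to -0.12. The cause of the other shifts was not tested. Signals near those of Gbp2b and Irgc1 limit what can be seen of dim relatives.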
